A study of Mus musculus with 14 samples.

Results

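The genes described here are 5 components of the leukaemia inhibitory factor (LIF) pathway: the receptors Lifr and Il6st, the kinase Jak1, the transcription factor Stat3 and the feedback inhibitor Socs3. They were picked by gene symbol from the 36335 named genes of the total and conversion count tables, and all 5 passed the count filters of every test. The cells were E14, a mouse embryonic stem cell line, either Mettl3-KO (8 libraries, 2 each at 0, 1, 3 and 8 h) or WT (6 libraries, 2 each at 1 and 8 h and 1 each at 0 and 3 h). Mettl3 is the catalytic subunit of the enzyme that methylates adenosine in mRNA (m6A). Both genotypes were kept on gelatin in serum medium with LIF for 2 weeks together with 200 nM INK128, an mTOR kinase inhibitor that puts embryonic stem cells into a paused state. For 12 h they then received 100 µM S4U, a thiolated uridine built into new RNA, and the hours count from its removal. The SLAM-seq assay turns S4U into T-to-C conversions after iodoacetamide treatment, so conversion counts follow RNA made during the pulse. The source field of the 2 Mettl3-KO libraries at 8 h reads E15 and E16, where their titles and cell line labels read E14, and they were used as labelled by the title. The labels give neither the number of Mettl3-KO clones nor whether replicates were separate cultures, so p-values measure the spread between these libraries, which may be technical.

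LIF brings its receptor Lifr together with gp130, the signal transducer encoded by Il6st. The kinase Jak1 bound to the receptor tails phosphorylates STAT3, which dimerises and enters the nucleus, and Socs3, itself switched on by STAT3, binds gp130 and blocks the kinase. In mouse embryonic stem cells this route sustains self-renewal, and the mouse epiblast depends on gp130 to persist through delayed implantation.

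Mettl3 itself had between 1.21 and 2.41 CPM (counts scaled to TMM-adjusted library totals) in the 7 Mettl3-KO libraries with at least 1000000 counts, against 23.0 to 74.9 CPM in the 5 such WT libraries. These 12 libraries, called deep below, held between 6108570 and 26656352 counts, against 602485 in Mettl3-KO 3 h replicate 2 and 49159 in WT 1 h replicate 2. In the shallow Mettl3-KO library the members had between 14 (Il6st) and 186 (Jak1) counts, and in the shallow WT library between 1 (Lifr) and 34 (Jak1), so the total RNA difference of each member and each called pathway gene is given with and without both. Of 9 embryonic stem cell markers 8 in deep Mettl3-KO and 9 in deep WT libraries exceeded 1 CPM, with sums of 3411 to 4629 CPM in Mettl3-KO and 4054 to 5142 CPM in WT. These sums were mostly Sox2 and Utf1. Esrrb was the 1 of the 9 called over 14 libraries (log2 -0.90, edgeR adjusted p = 0.0278), with deep means of 367 CPM in Mettl3-KO and 657 in WT. Summed endoderm markers (8 genes) were at 20.3 to 35.7 CPM in Mettl3-KO and 104 to 141 CPM in WT, with Afp at 0 in both. Lama1 was the largest part of that sum, with a mean of 12.5 CPM in Mettl3-KO and 88.6 in WT. Of the 7 tested, 4 were called lower and 1 higher, Foxa2, with a mean of 3.60 CPM in Mettl3-KO and 1.00 in WT. Over all tested genes 9.99% were called lower and 12.1% higher. Summed neural markers (5 genes) were at 129 to 186 CPM in Mettl3-KO and 65.6 to 86.4 CPM in WT, but the members went both ways, with Tubb3 at a mean of 118 CPM in Mettl3-KO and 12.9 in WT and Sox1 at 7.65 CPM in Mettl3-KO and 49.5 in WT. Trophoblast markers (6 genes, Elf5 at 0) summed to 90.0 to 113 CPM in Mettl3-KO and 47.7 to 62.7 CPM in WT. That sum was mostly Tfap2c, with a mean of 92.8 CPM in Mettl3-KO and 35.8 in WT, while Cdx2, Eomes and Gata3 had lower means in Mettl3-KO and did not pass. Fibroblast markers (7 genes, Postn at 0) were at 3.79 to 8.79 CPM in Mettl3-KO and 8.73 to 19.8 CPM in WT. The part of these marker differences in the results below was not tested. Y-linked Eif2s3y stood at 40.7 to 70.2 CPM in deep Mettl3-KO and 0.131 to 0.957 CPM in deep WT libraries, so the lines differ in more than Mettl3, and the effects below cannot be told apart from such a line difference.

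The pathway's members differed from each other in total RNA. Stat3 and Il6st were lower in Mettl3-KO cells, Lifr lay higher without passing in all 14 libraries, and neither Jak1 nor Socs3 passed. In the edgeR test 2 of the 5 members were called, both lower, where 22.1% of the 14641 tested genes were called, 12.1% higher and 9.99% lower. Without the shallow libraries 3 members were called, Stat3 and Il6st lower and Lifr higher, where 41.2% of genes were called, 21.9% higher and 19.3% lower. Without the 2 Mettl3-KO libraries at 8 h, an alternative chosen after seeing the data, 0 members were called, where 472 of 14184 genes were called higher and 521 lower. In bulk RNA, fewer cells of a type and less RNA per cell cannot be told apart.

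**Figure D1:**
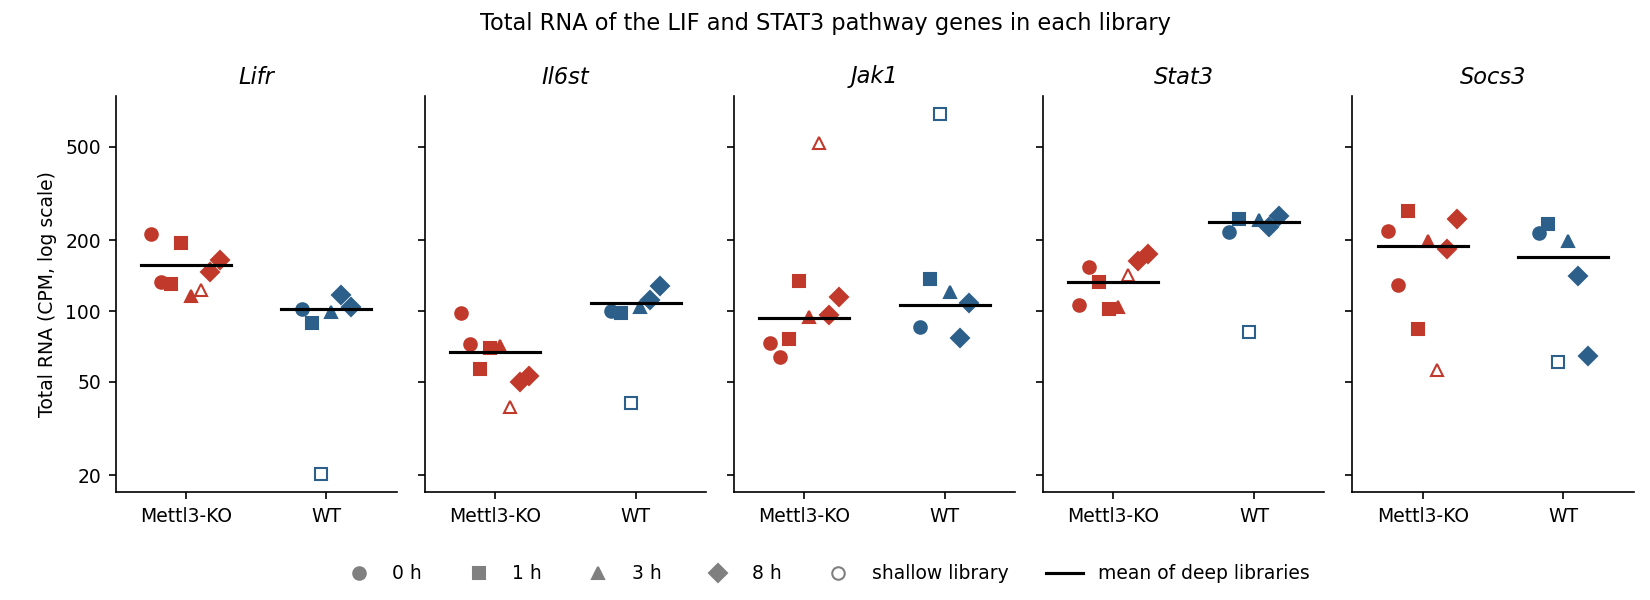
Total RNA of each member (CPM, log scale) in every library, Mettl3-KO left and WT right, with 1 symbol per hour after S4U removal, open symbols for the shallow libraries and a bar at the mean of the deep libraries. Stat3 lies between 102 and 174 CPM in deep Mettl3-KO libraries and between 217 and 254 CPM in deep WT libraries, while the open symbols stand apart for Jak1 in both genotypes.

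Lifr (chromosome 15, 7090610 to 7197489 on GRCm38.p6) encodes the subunit that binds LIF. Its total RNA in deep Mettl3-KO libraries lay between 116 and 213 CPM with a median of 147, against deep WT values of 102 CPM (0 h), 88.8 (1 h), 99.4 (3 h) and 117 and 104 (8 h). All but 1 of the deep Mettl3-KO libraries lay above every deep WT library, and the exception, Mettl3-KO 3 h replicate 1, lay just under the highest WT value. Deep means were 157 ± 35.9 CPM in Mettl3-KO (SD, n = 7) and 102 ± 10.1 CPM in WT (SD, n = 5). The log2 difference was 0.67 (SE 0.25, edgeR adjusted p = 0.0659) over 14 libraries. It was 0.57 (SE 0.18, edgeR adjusted p = 0.0148) without the shallow libraries, of which the Mettl3-KO one had 123 CPM and the WT one 20.3 CPM from 1 count. Lifr also passed without either shallow library alone, and over all alternatives its adjusted p ran between 0.0148 and 0.168.

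Il6st (chromosome 13, 112464070 to 112506860) encodes gp130, which LIF shares with the other cytokines of its family. In deep Mettl3-KO libraries it lay between 49.9 and 98.2 CPM with a median of 69.7, against 100 CPM (0 h), 97.8 (1 h), 104 (3 h) and 111 and 128 (8 h) in deep WT. Mettl3-KO 0 h replicate 1 was the only deep Mettl3-KO library to reach the WT range, and the lowest deep values were those of Mettl3-KO at 8 h, 49.9 and 53.0 CPM. Deep means were 67.2 ± 16.4 CPM in Mettl3-KO (SD, n = 7) and 108 ± 12.2 CPM in WT (SD, n = 5). Il6st fell by 0.74 on the log2 scale (SE 0.24, edgeR adjusted p = 0.0397), and by 0.76 (SE 0.18, edgeR adjusted p = 0.00227) without the shallow libraries, where it had 39.2 CPM in Mettl3-KO and 40.6 CPM in WT. The call in 14 libraries was lost with no count filter (adjusted p = 0.111), with library sizes from all genes (adjusted p = 0.0501), without both Mettl3-KO libraries at 8 h (log2 -0.45, adjusted p = 0.422) and in 8 of the 14 fits that left out 1 library (Mettl3-KO 0 h replicate 2, 1 h replicate 1 or either at 8 h, or WT 1 h replicate 1, 3 h replicate 1 or either at 8 h). Over all alternatives the adjusted p for Il6st ran between 0.00131 and 0.422.

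Jak1 (chromosome 4, 101151974 to 101265282) encodes the tyrosine kinase that gp130 relies on for signalling. Its deep Mettl3-KO libraries lay between 63.8 and 134 CPM with a median of 94.9, against 85.8 CPM (0 h), 137 (1 h), 120 (3 h) and 77.2 and 108 (8 h) in deep WT, so the genotypes overlapped over most of their range. Deep means were 93.3 ± 24.8 CPM in Mettl3-KO (SD, n = 7) and 106 ± 24.6 CPM in WT (SD, n = 5). The shallow libraries stood far above these, at 520 CPM in Mettl3-KO and 690 CPM in WT. The log2 difference was -0.33 (95% interval -1.55 to 0.89, edgeR adjusted p = 0.739) over 14 libraries. It was -0.18 (95% interval -0.55 to 0.19, edgeR adjusted p = 0.434) without the shallow libraries, and 0.12 without the shallow WT library alone.

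Stat3 (chromosome 11, 100886806 to 100939594) encodes the transcription factor that carries the signal to the nucleus. In deep Mettl3-KO libraries it lay between 102 and 174 CPM with a median of 133, against 217 CPM (0 h), 247 (1 h), 245 (3 h) and 229 and 254 (8 h) in deep WT. The deep groups did not overlap, and the WT libraries were close together. Deep means were 134 ± 30.4 CPM in Mettl3-KO (SD, n = 7) and 238 ± 15.1 CPM in WT (SD, n = 5). Stat3 fell by 0.73 on the log2 scale (SE 0.22, edgeR adjusted p = 0.0256), and by 0.85 (SE 0.16, edgeR adjusted p = 0.000397) without the shallow libraries. The shallow Mettl3-KO library had 143 CPM and the shallow WT library 81.2 CPM from 4 counts, which lies below every Mettl3-KO library. The call in 14 libraries was lost with no count filter (adjusted p = 0.0632), without both Mettl3-KO libraries at 8 h (log2 -0.75, adjusted p = 0.149) and in 7 of the 14 fits that left out 1 library (Mettl3-KO 0 h replicate 1 or either at 8 h, or WT 0 h, 3 h or 1 h replicate 1 or 8 h replicate 2). The adjusted p for Stat3 ran between 0.000397 and 0.149 over all alternatives.

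Socs3 (chromosome 11, 117966079 to 117970336) encodes the inhibitor that feeds back on gp130 and its kinases, and its own gene is a classic STAT3 target. Deep Mettl3-KO libraries lay between 84.1 and 267 CPM with a median of 198, against 216 CPM (0 h), 235 (1 h), 199 (3 h) and 141 and 64.4 (8 h) in deep WT. The 2 Mettl3-KO replicates at 1 h stood at 267 and 84.1 CPM, so the spread within 1 group spanned nearly the whole range of both genotypes. Deep means were 190 ± 64.5 CPM in Mettl3-KO (SD, n = 7) and 171 ± 69.1 CPM in WT (SD, n = 5). The log2 difference was 0.09 (95% interval -0.76 to 0.94, edgeR adjusted p = 0.910), and 0.15 (95% interval -0.61 to 0.91, edgeR adjusted p = 0.758) without the shallow libraries, at 55.9 CPM in Mettl3-KO and 60.9 CPM in WT. It was -0.22 without both Mettl3-KO libraries at 8 h.

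The letters TTCNNNGAA, a palindrome described for STAT factors and equal to its own reverse complement, were searched in RefSeq promoter sequences of GRCm38.p6, which run 250 bases before to 50 bases after a gene's start. They occur in 8.30% of 32851 such promoters. All 5 members have a promoter entry, and Socs3 is the 1 member whose window holds the letters, beginning 154 bases before the start that this table's window uses. That window lies inside the gene span given above, so the match is not upstream of the span. Of the 17 genes described as STAT3 targets, 13 have an entry and Bcl6 alone holds the letters, 4 times over 2 promoters. The Socs3 match (chr11:117969501-117969530, minus strand) and the Bcl6 match nearest to a start (chr16:23981352-23981381, minus strand) are shown because these are the genes with a match. Capitals mark the searched letters.
Socs3: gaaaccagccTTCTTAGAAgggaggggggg
Bcl6: atcgactacgTTCCGGGAAtgagagggctg
Binding of STAT3 at either place was not measured here.

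Whether total RNA moved differently between the genotypes over the chase was tested by genotype and hours, and no member was called. By edgeR 0% of 14641 genes passed (728 genes at an unadjusted p under 0.05, no member among them). DESeq2 called no member, where it called 85 of 14641 genes above 0 and 116 below. Il6st came nearest, at -0.14 log2 per hour for Mettl3-KO minus WT (95% interval -0.28 to 0.0043). Its Mettl3-KO libraries stood at 98.2 and 72.3 CPM (0 h), 56.6 and 69.7 (1 h), 71.1 (3 h, deep library) and 49.9 and 53.0 (8 h). Without the shallow libraries the difference was -0.11 for Il6st (edgeR adjusted p = 0.173) and 0.19 for Socs3 (edgeR adjusted p = 0.254), where 0.549% of genes were called.

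The other genes of the pathway, listed by role with earlier results of these data known, also included lower receptors, kinases and targets. Counts of called genes below stand against 12.1% of all tested genes called higher and 9.99% called lower over 14 libraries, and 21.9% higher and 19.3% lower without the shallow libraries. Every listed gene called over 14 libraries was also called without the shallow ones, whose log2 values follow as deep. Of 8 ligands of the gp130 family 4 were abundant enough to test. Cntf, ciliary neurotrophic factor, rose to 6.69 ± 1.81 CPM in deep Mettl3-KO libraries (SD, n = 7) against 1.55 ± 1.97 CPM in deep WT libraries (SD, n = 5), by 2.41 on the log2 scale (SE 0.59; deep 2.31). Lif, whose protein was also supplied in the medium, stood at 1.70 ± 1.13 CPM in deep Mettl3-KO (SD, n = 7) and 1.09 ± 0.86 CPM in deep WT libraries (SD, n = 5) and did not pass. Of the 3 tested family receptors 2 fell. Cntfr, the CNTF receptor, fell by 1.83 on the log2 scale (SE 0.34), with a deep value of -1.83. Il6ra, the IL-6 receptor, fell by 1.83 (SE 0.57), with a deep value of -1.99, and reached at most 2.41 CPM in deep Mettl3-KO and 4.87 CPM in deep WT libraries. With no count filter, and in 7 of the 14 fits that left out 1 library (any deep Mettl3-KO library but 0 h replicate 1, or WT 8 h replicate 1), Il6ra was no longer called while Cntfr was. Cntf and Il6ra both lost their calls without both Mettl3-KO libraries at 8 h.

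Among the 9 other Janus kinases and STAT factors 3 fell and 0 rose, with a list median of -0.34 against 0.05 over all tested genes. Jak3, the kinase of common gamma chain receptors, lay between 3.52 and 6.98 CPM in deep Mettl3-KO and between 15.2 and 22.7 CPM in deep WT libraries (log2 -1.89, SE 0.28; deep -1.95). Tyk2, a kinase shared by interferon and IL-12 family receptors, lay between 7.42 and 15.8 CPM in Mettl3-KO and between 26.5 and 39.9 CPM in WT (log2 -1.54, SE 0.26; deep -1.53). Stat2, which acts in type I interferon signalling, fell by 0.99 (SE 0.30), with a deep value of -0.95. Its call was lost with no count filter, without both Mettl3-KO libraries at 8 h and in 7 of the 14 fits that left out 1 library.

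The branch from gp130 to ERK runs through the phosphatase SHP2 (Ptpn11) and adaptors. Of its 5 genes 2 fell. Gab1, a docking protein for SHP2, lay between 28.7 and 71.4 CPM in deep Mettl3-KO and between 79.8 and 201 CPM in deep WT libraries (log2 -1.45, SE 0.24; deep -1.49). Shc1, an adaptor that recruits Grb2, lay between 34.8 and 49.2 CPM in Mettl3-KO and between 86.0 and 121 CPM in WT (log2 -1.47, SE 0.25; deep -1.42). Neither pair of ranges overlapped.

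The inhibitors other than Socs3 went both ways. Of 14 tested 3 rose, 1 fell and 10 did not pass, with a median of 0.19. With so few genes these counts lie near the shares over all tested genes. Socs5 rose by 1.12 (SE 0.25; deep 1.07), Socs7 by 0.67 (SE 0.20; deep 0.66) and Ptpn6, the phosphatase SHP1, by 1.46 (SE 0.38; deep 1.57). Pias2, of the family of protein inhibitors of activated STAT, fell by 0.56 (SE 0.18), with a deep value of -0.59. The call of Pias2 was lost with no count filter and in 11 of the 14 fits that left out 1 library, all but those without Mettl3-KO 1 h replicate 2 or 1 of the shallow libraries. Socs7 lost its call in 8 of these fits. Without the shallow libraries 5 rose, Socs6 (0.76) and Pias3 (0.51) in addition, and 1 rose with no count filter. Without both Mettl3-KO libraries at 8 h Socs5, Socs7, Ptpn6 and Pias2 all lost their calls. Socs2, the most abundant of the SOCS family here, had 339 ± 50.8 CPM in deep Mettl3-KO libraries (SD, n = 7) and 415 ± 83.1 CPM in deep WT libraries (SD, n = 5) and did not pass.

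Of 17 genes described as STAT3 targets in embryonic stem cells or other cells 16 could be tested, and 9 fell, 0 rose and 7 did not pass. Over all tested genes 9.99% were called lower and 12.1% higher. The median of the targets was -0.98 against 0.05 over all tested genes. The list was drawn up with earlier results of these data known, so this contrast is a description only. The lower ones included regulators of the naive state. Klf5 lay between 197 and 478 CPM in deep Mettl3-KO and between 6912 and 13142 CPM in deep WT libraries (log2 -4.30, SE 0.44; deep -4.76). Tfcp2l1, a mediator of LIF-driven self-renewal, lay between 82.4 and 174 CPM in Mettl3-KO and between 748 and 1045 CPM in WT (log2 -2.71, SE 0.25; deep -2.91). Gbx2, a homeobox gene, lay between 45.3 and 106 CPM in Mettl3-KO and between 209 and 246 CPM in WT (log2 -1.67, SE 0.38; deep -1.73).

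The other lower targets were the AP-1 genes Junb (log2 -2.04, deep -2.12) and Fos (-1.36, deep -1.45), the NF-kappaB cofactor Bcl3 (-1.34, deep -1.32), the TGF-beta inhibitor Smad7 (-1.02, deep -1.26), the survival gene Bcl2l1 (-0.94, deep -1.02) and the kinase gene Pim1 (-0.86, deep -1.04). With 1 library left out, Pim1 lost its call in 12 of the 14 fits, Fos in 9 and Smad7 in 8, and all 3 lost it with no count filter. Pim1 lost it also with RLE scaling and with library sizes from all genes. Targets that did not pass included Klf4, at 963 ± 401 CPM in deep Mettl3-KO and 799 ± 134 CPM in deep WT libraries (SD, n = 7 and 5), Pim3 (log2 -0.03, SE 0.35) and Mcl1 (log2 0.36, SE 0.20). Without the shallow libraries 10 of the 16 were lower, Bcl6 (log2 -1.65) in addition, where 19.3% of all genes were lower. Without both Mettl3-KO libraries at 8 h 4 were lower (Klf5, Tfcp2l1, Junb and Bcl3), the fewest over the 21 alternatives, of which none gave a higher one.

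**Figure D2:**
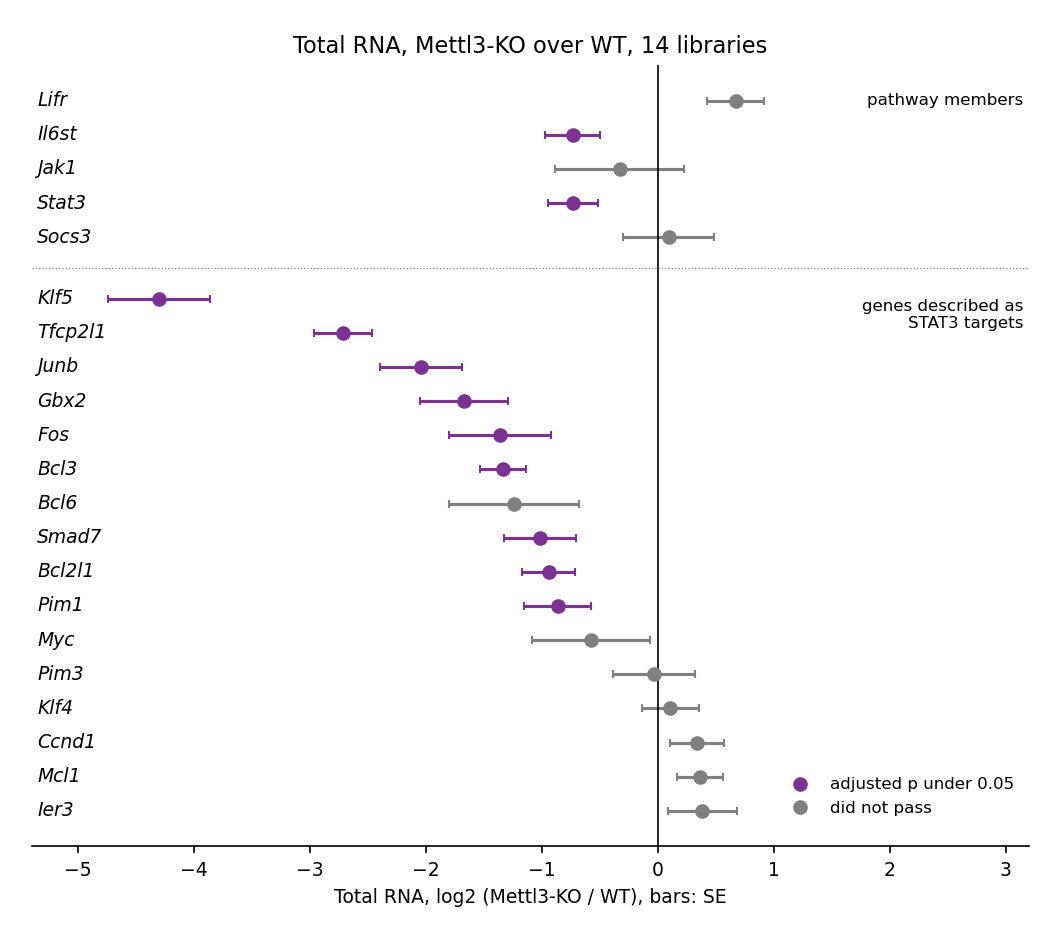
Log2 ratio of total RNA, Mettl3-KO over WT, with its SE, for the 5 members (top) and the 16 tested genes described as STAT3 targets (below, sorted), over 14 libraries. Purple marks an edgeR adjusted p under 0.05: Il6st and Stat3 among the members and 9 targets led by Klf5 at -4.30, all lower in Mettl3-KO.

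At the end of the S4U pulse the labelled share, conversion counts per 100 total counts, was lower for every member in Mettl3-KO libraries than in the WT library. At 0 h Lifr had 32.2% and 30.4% in Mettl3-KO and 46.9% in the 1 WT library. Il6st had 31.8% and 30.6% in Mettl3-KO and 45.6% in WT, and Jak1 36.6% and 35.2% in Mettl3-KO and 49.5% in WT. Stat3 had 37.9% and 29.2% in Mettl3-KO and 49.9% in WT, and Socs3 34.6% and 31.8% in Mettl3-KO and 52.0% in WT. The median over genes with at least 50 counts was 30.3% and 30.9% in Mettl3-KO and 45.5% in WT, so the members differed in the same direction as the median gene. Wilson 95% intervals of these shares were at most 2.88 percentage points to either side, and cover counting error only. Here and below, intervals and limits of a share assume that conversions were counted per read, which is not stated.

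Labelled RNA per unit of library total, fitted at 0 h, called 0 of the 5 members by edgeR, where 7.62% of 12678 genes were called and the median of all genes was -0.35. Stat3 was the 1 member at an unadjusted p under 0.05. Its labelled RNA stood at 40.2 and 44.8 CPM in Mettl3-KO and 108 CPM in WT at 0 h, a fitted log2 difference of -1.17 (SE 0.46, edgeR adjusted p = 0.110). It passed without the shallow libraries, at -1.32 (SE 0.37, edgeR adjusted p = 0.0129), without the shallow WT library alone (adjusted p = 0.0234) and with DESeq2 (adjusted p = 0.0272), with an adjusted p between 0.0129 and 0.777 over all alternatives. Among deep libraries 10.1% of genes were called. Set against Stat3's own total RNA in place of the library's, the difference was -0.26 (SE 0.35), against a median of -0.41 over all genes. The other members stood at 0.47 (Lifr), -0.48 (Il6st), -0.59 (Jak1) and -0.89 (Socs3), with SEs between 0.48 and 0.50.

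The label was lost from all 5 members during the chase in both genotypes, and Socs3 had the steepest fitted slope of them in each. All 5 passed in Mettl3-KO and in WT, where 88.2% of genes did in Mettl3-KO and 91.4% in WT. In Mettl3-KO the call rests on the libraries at 8 h. Without both of these, slopes lay between -0.77 (Socs3) and -0.20 (Jak1) and 0 of the 5 passed, where 3 of 12658 genes passed with a slope below 0. Leaving out both WT libraries at 8 h was not tried, so how far the WT calls rest on them is not known. At 1 h deep shares in Mettl3-KO were 34.1% and 43.6% for Socs3, 33.6% and 39.1% for Stat3 and 29.9% and 34.3% for Il6st. Jak1 had 31.1% and 39.8% and Lifr 29.1% and 28.3%, against median genes at 29.1% and 30.9%. The deep WT library had 35.3% (Socs3), 37.5% (Stat3), 32.4% (Il6st), 41.6% (Jak1) and 38.3% (Lifr), against a median gene at 34.7%. Each WT share lay below its 0 h value, while Mettl3-KO ranges at 0 and 1 h overlapped for all but Lifr. At 3 h the labelled share of Socs3 was 7.46% in the deep Mettl3-KO library (95% interval 6.74 to 8.26) and 17.5% in WT (16.0 to 19.1). The median gene stood at 18.6% in that Mettl3-KO library and 19.2% in WT. These are 1 library each. The shallow Mettl3-KO library had 3 conversions in 20 counts of Socs3 (15%), against a median gene at 5.77%. At 8 h Socs3 stood at 0.527% and 1.12% in Mettl3-KO and 1.12% and 1.65% in WT, against median genes at 2.42% and 2.44% in Mettl3-KO and 2.27% and 1.64% in WT. The deep Mettl3-KO values of Socs3 thus lay under the median gene at 3 h and at 8 h, and not at 1 h. The fit per unit of library total had its loss slower in Mettl3-KO, with half-lives of 1.51 h in Mettl3-KO and 1.24 h in WT. With its own total count as offset the difference in loss rate was -0.033 log2 per hour, where below 0 means faster loss in Mettl3-KO. Neither difference was called.

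The shares are per total counts of the gene in each library, not per label present at 0 h. Every member's share was already lower in Mettl3-KO at 0 h, so a lower share later is not by itself a faster loss. The labelled share of Lifr was 14.9% at 3 h and 2.21% and 1.2% at 8 h in deep Mettl3-KO libraries. In WT it was 17.2% at 3 h and 2.63% and 3.08% at 8 h. Il6st had 16.4%, then 1.41% and 2.14% in Mettl3-KO, against 14.2%, then 1.95% and 3.45% in WT at the same hours. At 8 h both Mettl3-KO libraries lay below both WT libraries for Lifr, Jak1 and Stat3, while those of Il6st and Socs3 overlapped. The median gene at 8 h was higher in Mettl3-KO, at 2.42% and 2.44% against 2.27% and 1.64% in WT. Jak1 had the highest share at 8 h, 3.21% and 3.38% in Mettl3-KO and 6.71% and 5.34% in WT, where both genotypes lay above their median gene. Stat3 had 16.2% at 3 h and 2.60% and 2.06% at 8 h in Mettl3-KO, against 20.4% at 3 h and 3.09% and 4.20% at 8 h in WT. No library without S4U was used here, so the share of conversions not due to the label is unknown.

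**Figure D3:**
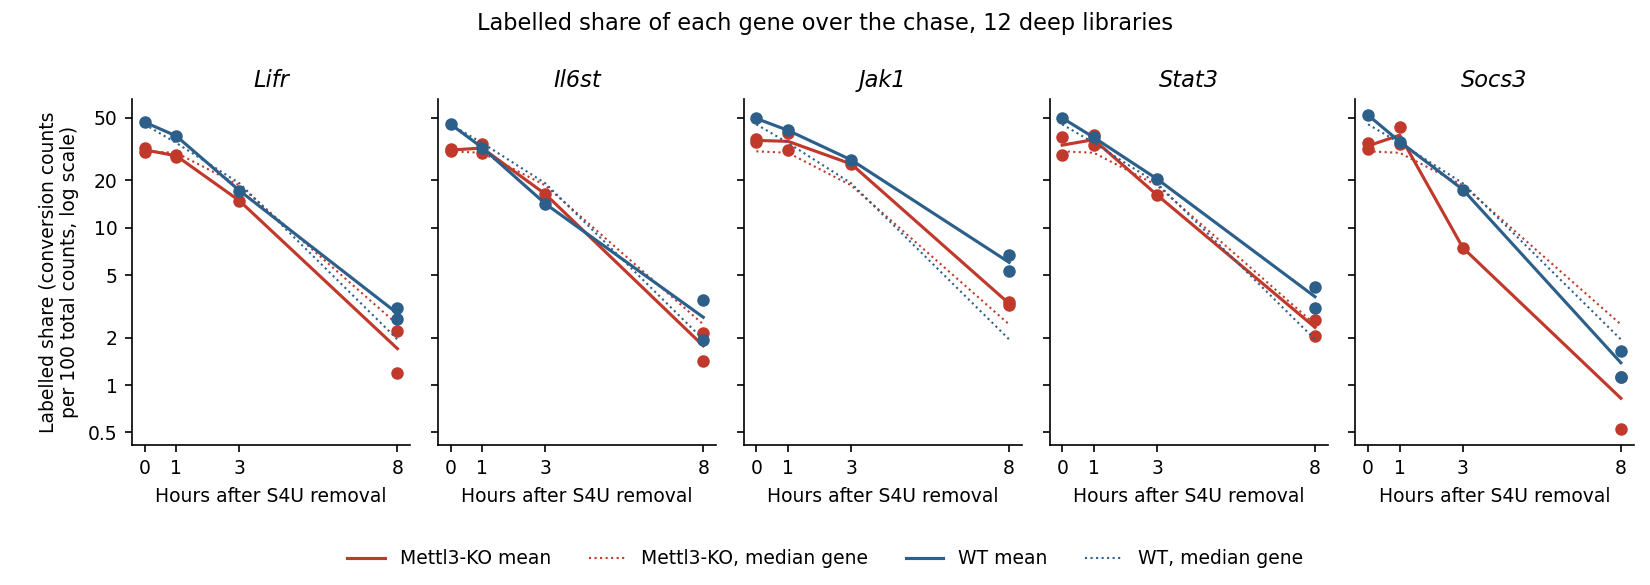
Conversion counts per 100 total counts (log scale) against hours after S4U removal in the 12 deep libraries, 1 panel per member; points are libraries, solid lines are means per genotype and dotted lines the mean of the libraries' median gene. Mettl3-KO starts lower than WT for every member at 0 h, and Socs3 in Mettl3-KO drops to 7.46% at 3 h, under its median gene at 18.6%.

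The fitted half-lives of labelled RNA ran, short to long, from Socs3 through Il6st, Lifr and Stat3 to Jak1 in Mettl3-KO, and in WT likewise but with Lifr before Il6st. Socs3 had 1.51 h in Mettl3-KO (95% interval 1.2 to 2.04) and 1.24 h in WT (0.991 to 1.64). Il6st had 1.65 h in Mettl3-KO (1.28 to 2.31) and 2.13 h in WT (1.56 to 3.34), and Lifr 1.76 h in Mettl3-KO (1.37 to 2.48) and 2.09 h in WT (1.55 to 3.24). Stat3 had 2.20 h in Mettl3-KO (1.63 to 3.34) and 2.26 h in WT (1.64 to 3.63), and Jak1 2.41 h in Mettl3-KO (1.72 to 4.03) and 2.43 h in WT (1.70 to 4.27). The interval of Socs3 overlapped those of all other members in Mettl3-KO, and those of all but Jak1 in WT. Intervals of the other members overlapped each other in both genotypes. The members' rates were not tested against each other. Socs3's slope was steeper than that of most genes, with 12.9% of tested genes steeper in Mettl3-KO and 13.2% in WT. Half-lives are per unit of total RNA and carry no correction for cell division. They assume 1 constant rate over the chase. From 0 to 1 h mean labelled RNA in Mettl3-KO went from 58.4 to 63.8 CPM for Socs3 and from 24.7 to 38.5 for Jak1. It went from 42.5 to 42.2 CPM for Stat3, 54.6 to 46.7 for Lifr and 26.7 to 20.4 for Il6st. In deep WT libraries, 1 at each hour, only Jak1 rose, from 42.5 to 57.2 CPM. Whether the shape of the loss differed between genotypes was not tested.

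**Figure D4:**
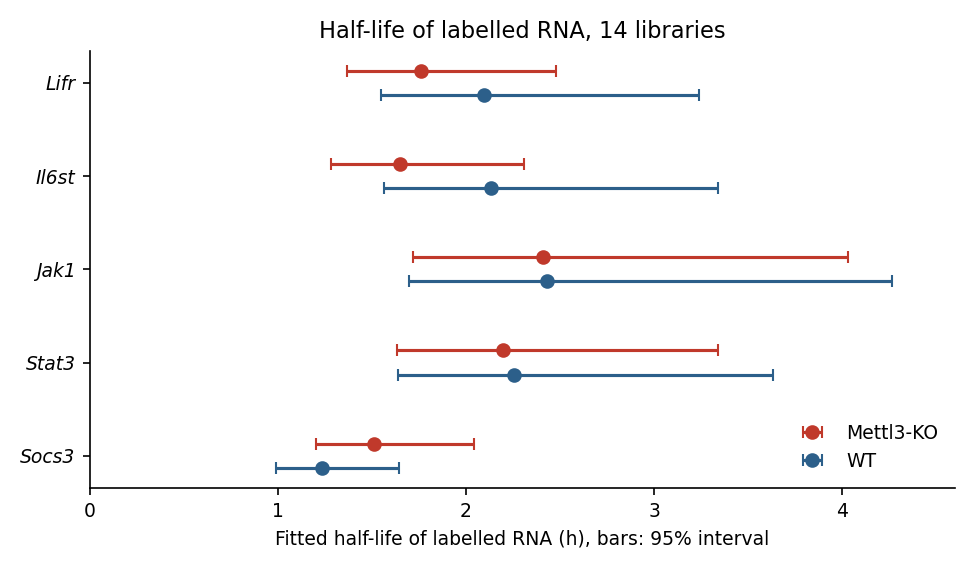
Fitted half-life of labelled RNA (h) of each member in Mettl3-KO (red, above) and WT (blue, below), with 95% intervals from the fit over 14 libraries. The 2 intervals overlap for every member, and Socs3 has the shortest fitted half-life in both genotypes, 1.51 h in Mettl3-KO and 1.24 h in WT.

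No difference in the loss rate between Mettl3-KO and WT was detected for any member. Of the 5, edgeR called 0 (0 at an unadjusted p under 0.05), where it called 2.6% of 12678 genes. DESeq2 also called 0 of the 5, where it called 700 of 12678 genes above 0 and 43 below. The median of all genes by edgeR was 0.10 log2 per hour (above 0 means slower loss in Mettl3-KO). The differences were -0.09 log2 per hour for Lifr (95% interval -0.30 to 0.12), -0.14 for Il6st (-0.36 to 0.08) and 0.15 for Socs3 (-0.08 to 0.37). Stat3 stood at -0.01 (-0.21 to 0.19) and Jak1 at -0.0029 (-0.21 to 0.21). These intervals bound how far the genotypes may differ in a rate taken as constant over the chase, and do not show that the rates are equal. A difference confined to part of the chase was not tested.

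The authors' deposited table of half-lives, which states no unit, lists 3 of the 5 members. In the authors' deposited table Lifr had 2.24 in Mettl3-KO and 1.99 in WT, Il6st 2.20 in Mettl3-KO and 2.05 in WT, and Socs3 1.76 in Mettl3-KO and 1.28 in WT. The medians over the 6984 named genes in the authors' deposited table were 2.52 in Mettl3-KO and 1.69 in WT. In that table all 3 were longer in Mettl3-KO, as was the median. Socs3 lay above 17.8% of the listed genes in Mettl3-KO and 8.85% in WT. Lifr lay above 38.1% in Mettl3-KO and 75.8% in WT, and Il6st above 36.3% in Mettl3-KO and 79.1% in WT. The fit to the counts had Lifr and Il6st shorter in Mettl3-KO, within their errors.

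Of the 48 listed pathway genes beyond the members that were tested for their loss rate, Ptpn11, the gene of SHP2, was the 1 called, 2.08% of the list against 2.6% of all tested genes, so it is given as a single gene. Its conversions were 4 of 112 and 21 of 371 counts at 8 h in Mettl3-KO, against 0 of 140 and 0 of 65 in WT, which allow shares of up to 2.14% and 4.62%. Its loss was slower in Mettl3-KO by 0.77 log2 per hour (SE 0.23, edgeR adjusted p = 0.0431), and the fitted half-life was 3.23 h in Mettl3-KO and 0.929 h in WT. In deep WT libraries, 1 at each hour, its share was 40.5% at 0 h, 59.8% at 1 h (52 of 87 counts) and 11.5% at 3 h (11 of 96). The WT share thus rose in the first hour, while the half-life assumes 1 constant rate. Deep Mettl3-KO shares were 26.6% and 37.3% at 0 h, 32.9% and 33.7% at 1 h and 17.1% at 3 h. The call was lost in 8 of the 14 fits that left out 1 library (Mettl3-KO 8 h replicate 2 or any at 0 or 1 h, or WT 1 h replicate 1 or either at 8 h) and in 11 of all 22 alternatives (adjusted p between 0.0170 and 0.242). Its total RNA, between 8.39 and 14.8 CPM in deep Mettl3-KO and between 8.35 and 12.3 CPM in deep WT libraries, did not pass.

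The genes whose total RNA followed each member most closely over the 12 deep libraries were found by Pearson's r of log2(CPM + 1) among 9098 genes. For Stat3 they were Mkrn1 (r = 0.99), Supt5 (0.97) and 9430015G10Rik (0.96), for Lifr Plekha5 (0.97), Chfr (0.96) and Nceh1 (0.95), and for Il6st Zfp882 (0.97), Tbc1d24 (0.95) and Xiap (0.94). For Socs3 they were Tollip (0.94), Usp8 (0.93) and Washc3 (0.93), and for Jak1 Tyw3 (0.91), Xkr8 (0.89) and Usp22 (0.87). The points share their libraries and depth, and the likeness is a description over 2 genotypes. Among the members themselves, Stat3 and Lifr had r = -0.76 over the 12 libraries, and r = -0.26 within the 7 Mettl3-KO and -0.39 within the 5 WT libraries.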

How the data were processed

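Per the submitters' processing notes, Trim Galore 0.4.0, featureCounts, Subread 1.5.0 and edgeR 3.32.1 were used with build mm10, with no role given. Neither the aligner nor the conversion caller is named there or in the labels. Libraries were made from the 3' ends of 100 ng RNA, per the labels' protocols, so a count needs no division by transcript length. The authors deposited raw total counts and raw conversion counts per gene. Nothing says if conversions were counted per read or per base. The authors also deposited log2 normalized conversion values, used as 1 alternative. A further deposited table holds the authors' half-lives, with no unit stated, and correlation scores of their fits.

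Total counts were tested with edgeR 4.0.16 in R 4.3.3 (quasi-likelihood F tests, robust, TMM) on the 14641 genes that reached 10 counts in 6 or more libraries, in a model of chase time and genotype, and in 1 of genotype, hours and their interaction. Conversion counts of the 12678 genes that reached 10 in 3 or more libraries took the second model, with the TMM-scaled total count of the library as scale. All 14 libraries shared each fit, so lone WT libraries at 0 h and 3 h are assumed to vary like the others. Benjamini-Hochberg adjusted p under 0.05, over all tested genes, was the threshold. A half-life is the time in which fitted label falls by 50%. The entry with no gene name held 0.00707% to 0.0312% of a library's counts and was left out. In 152 genes, no member among them, a library held more conversions than total counts. Tests were tried on simulated counts. DESeq2 1.42.0 and limma 3.58.1 served as alternatives, with other scalings, filters and left-out libraries. The members and lists were chosen with earlier results of these data known. The text names the members, listed pathway genes that passed, 3 like genes per member and Mettl3. Eif2s3y, single marker genes and listed genes that did not pass were named after their values were seen. Promoters are from RefSeq on GRCm38.p6.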

Additional observations from a re-analysis of the deposited data

Results flagged for a closer look

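Values of total RNA that stood apart from the other libraries of their genotype were found in 5 of the 10 combinations of member and genotype. They all belong to the 2 shallow libraries, so the 5 are not independent, and the rule used marks about 1 in 20 groups by chance. In Mettl3-KO 3 h replicate 2 Jak1 had 520 CPM, above the other 7 libraries at 63.8 to 134 CPM. In WT 1 h replicate 2 Jak1 had 690 CPM, Lifr 20.3 CPM, Il6st 40.6 CPM and Stat3 81.2 CPM, the first above and the others below the other 5 WT libraries. The Jak1 counts of both carried few conversions, 2 of 186 (1.08%, 95% Wilson interval 0.295 to 3.84) in Mettl3-KO and 0 of 34 in WT, which allows a share of up to 8.82%. The median gene of the Mettl3-KO library had 5.77%.

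Ptpn11 was marked because its loss of label differed between the genotypes in the test of that difference, by 0.77 log2 per hour.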

How the results depend on the processing

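Of the results on members under alternatives that left out 1 library, 390 kept direction and side of the threshold, 15 lost and 3 gained a call and 12 turned sign. Under the other alternatives these were 183, 13, 4 and 15. In total RNA, leaving out 1 library gave 0.55 to 0.79 for Lifr, -0.86 to -0.65 for Il6st, -0.83 to -0.55 for Stat3, -0.68 to 0.12 for Jak1 and -0.11 to 0.33 for Socs3. Lifr passed with DESeq2 (0.61) and without both shallow libraries (0.57). Il6st did not pass with no count filter (-0.71), with library sizes from all genes (-0.70, chosen after seeing the data) or with the replicate block (-0.71). Stat3 did not pass with no count filter (-0.72). Leaving out both Mettl3-KO libraries at 8 h, chosen after seeing the data, leaves fewer samples and a shorter chase. It gave total RNA of -0.45 for Il6st and -0.75 for Stat3, neither passing, -0.22 for Socs3, and 4 lower STAT3 targets. It gave total RNA slope differences of -0.028 for Socs3 and -0.053 for Stat3. Mettl3-KO loss slopes, none passing, were -0.51 for Lifr, -0.43 for Il6st, -0.20 for Jak1, -0.55 for Stat3 and -0.77 for Socs3, and loss rate differences turned for Il6st (0.038) and Jak1 (0.21).

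The slope difference in total RNA for Stat3 lay between -0.0019 and 0.048 with 1 library left out. Labelled RNA at 0 h for Stat3 passed with DESeq2 (-1.19) and without both shallow libraries (-1.32), and lay between -1.39 and -1.02 with 1 library left out; with its own total as offset Lifr turned to -0.37. TMM on the conversion counts, which by construction removes loss shared by the whole library, gave WT slopes of 0.033 for Lifr, 0.045 for Il6st, 0.10 for Jak1 and 0.069 for Stat3. In Mettl3-KO it gave 0.019 for Jak1, -0.14 for Lifr and -0.030 for Stat3. The difference in loss rate turned for Jak1 (0.012 without both shallow libraries, 0.027 with limma on the authors' log2 values, and -0.041 to 0.047 with 1 library left out). It turned for Stat3 (0.0097 without both shallow libraries, and -0.053 to 0.024 with 1 left out) and for Socs3 with its own total as offset (-0.033). None of these was called, and the cause was not tested.

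The labels give replicate numbers no shared origin, and the deviations of replicates 1 and 2 correlated at -0.11 to 0.36 over 15 pairs of groups, above 0.1 in 3, so the numbers were not taken to pair libraries. Under the replicate block Il6st, Pias2 and Pim1 lost their calls in total RNA and Socs6 gained one, with 8 STAT3 targets lower. Depth limits the shallow libraries, with 1 to 186 counts of a member, and the 8 h values, with as few as 7 conversion counts of a member in a deep library.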
